A study of Mus musculus with 2 samples.

Results

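The mouse genes described here code for the nuclear-encoded parts of the respiratory chain and of ATP synthase. They were chosen by name: probes for genes whose symbols start with Nduf (complex I), Uqcr (complex III), Cox4, Cox5, Cox6, Cox7 or Cox8 (complex IV), or Atp5 (complex V). This gave 86 of the 34844 gene names on the array, read by 128 of its 55681 probes. The names also bring in assembly factors, tissue-restricted isoforms and Cox4nb, which the RefSeq table names Emc8, a part of the endoplasmic reticulum membrane complex and no respiratory chain subunit. Islets of mice with the knock-in allele RbΔK7, whose retinoblastoma protein (Rb) is resistant to phosphorylation, were compared with islets of control mice. The study had 2 mutant and 2 control samples, which the design text says were grown and harvested independently, on 2 two-colour arrays. Each array held 1 mutant sample in red (Cy5) and 1 control sample in green (Cy3). The islets were freed with collagenase and picked under a microscope, and ages, sexes, the number of mice in a sample and the mouse strain are not given in the sources used here. No array had its dyes exchanged, so a dye effect and a genotype effect cannot be told apart. Both arrays lay on 1 slide.

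In the inner mitochondrial membrane, complex I takes electrons from NADH, complex III passes them from ubiquinol to cytochrome c, and complex IV gives them to oxygen. The proton gradient that these complexes build drives ATP synthase, complex V. Nuclear DNA codes for most of the subunits and mitochondrial DNA for the remainder. In beta cells, ATP made by this route from glucose closes potassium channels and so starts insulin release. Rb holds back E2F transcription factors until it is phosphorylated.

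The probes printed here are the ones on which the gene-level statements below turn: Atp5g1, whose separate probes gave different ratios, and Cox6a2, Ndufc2 and Atp5g3, whose levels are given below for each sample. All are 60-base probes, printed 5′ to 3′ as the scanner files give them and placed on mm9. The probes of Atp5g1 lie on the minus strand at chr11:95930317-95930376 (called the downstream probe here) and chr11:95934315-95934374 (the upstream probe). Cox6a2 was read at chr7:135349160-135349219 (minus), Ndufc2 at chr7:104556135-104556194 (plus) and Atp5g3 at chr2:73746519-73746578 (minus). Exon and UTR annotation on mm9 was not used here. Capitals mark a 12-base window that the downstream Atp5g1 probe shares with 4 probes of other gene names, picked as its most often shared window. In all, 18 other probes of the array held some 12-base window of it on the same strand and 8 on the opposite strand.
Atp5g1, downstream probe: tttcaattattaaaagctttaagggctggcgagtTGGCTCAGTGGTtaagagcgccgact
Atp5g1, upstream probe: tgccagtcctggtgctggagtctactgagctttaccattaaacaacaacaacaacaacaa
Cox6a2 probe: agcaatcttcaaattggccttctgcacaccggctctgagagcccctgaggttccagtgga
Ndufc2 probe: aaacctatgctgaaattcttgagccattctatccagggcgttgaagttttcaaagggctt
Atp5g3 probe: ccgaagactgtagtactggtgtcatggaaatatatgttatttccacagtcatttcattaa

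With intensity-dependent normalization, no nuclear respiratory chain or ATP synthase gene differed between RbΔK7 and control islets at an adjusted p under 0.05. With median centring alone, 72 of their 118 tested probes did, each of them higher in the mutants. So were 29.9% of all tested probes and 64.2% of the brightest 25%, where most of the member probes lie. The first setting, loess, fits each array's ratio as a smooth function of spot brightness and subtracts it. The second, median centring, shifts all log ratios of an array by 1 constant, the median over its gene spots, dim ones included. The tested probes alone were then not centred and had medians of 0.39 and 0.84 on the 2 arrays. Ratios below are log2 of mutant over control, loess-normalized unless another setting is named, and replicate 1 and replicate 2 stand for the 2 arrays. Where a gene had several probes, the brightest tested one stands for it.

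Of the 86 genes, 81 had a probe well above background in either channel on both arrays, and 118 of the 128 probes passed. The 5 genes not tested were Cox7b2, Cox8b and Cox8c, isoforms of complex IV known from testis or muscle, Ndufa4l2, and Atp5s, which RefSeq names Dmac2l. For Ndufa4l2 the spot on the replicate 1 array was uneven and left out. Several probes were placed by the files away from the home chromosome of their gene, such as 1 for Cox5b on chromosome 15. The brightest Atp5l probe, which stands for that gene below, was placed on chromosome X and matched no RefSeq transcript. Whether such probes read a copy of the gene elsewhere was not tested, so their values are uncertain to that extent.

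Loess takes out a shift that probes of like brightness share, so the median of a group of bright probes is drawn towards 0. After this step the member genes lay close to equal levels in both genotypes. Their median ratio was -0.05 on replicate 1 and -0.02 on replicate 2, while the medians of all 22266 tested probes were both 0.02. Of the 81 genes, the mutant had the higher level on both arrays for 14 (17.3%) and the lower for 28 (34.6%), and 39 had opposite signs. Of all tested probes 32.4% were higher and 25.3% lower in both pairs. Of the brightest 25%, where most of the member probes lie, 27.7% were higher and 26.5% lower in both pairs. On the test by limma with Benjamini-Hochberg adjustment over all tested probes, 0 of the 118 member probes were called higher and 0 lower. The background was 0.368% of probes called higher and 0.0135% called lower. At an unadjusted p under 0.05 there were 3 member probes, against 11.3% of all probes. The 95% confidence interval of a member gene's mean ratio reached 0.32 to 0.60 log2 units to either side, with a median reach of 0.33. These intervals are not adjusted for the number of probes tested, so with 2 arrays a call needed a difference larger than the reach. Ndufc2, with a mean of 0.39 and a reach of 0.37, had an adjusted p of 0.40 by limma. A missed threshold does not show that levels were alike.

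The ratios of the member genes spread less than those of all tested probes and of the brightest ones, as did those of some related lists. The SD across the 81 genes was 0.20 on replicate 1 and 0.19 on replicate 2, against 0.29 and 0.48 across all tested probes and 0.32 and 0.69 across the brightest 25% of probes. Ratios lay within 0.25 log2 units of 0 on both arrays for 66 of the 81 genes (81.5%), against 48.9% of all tested probes and 43.6% of the brightest 25%. The 12 tested regulators of mitochondrial gene expression had SDs of 0.13 and 0.15 with 91.7% of genes within that range, and the 9 tested assembly genes of complex IV had SDs of 0.14 and 0.20 with 77.8%. Between the arrays the genes' ratios had a Pearson correlation of 0.22 over 81 genes, which share the same RNA samples and are not independent replicates. Over all tested probes it was 0.24. As a measure of technical spread, the 10 spots of the single Uqcrc2 probe had SDs of 0.051 and 0.046 log2 units within the replicate 1 and replicate 2 arrays on Agilent's own log ratios.

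**Figure D1:**
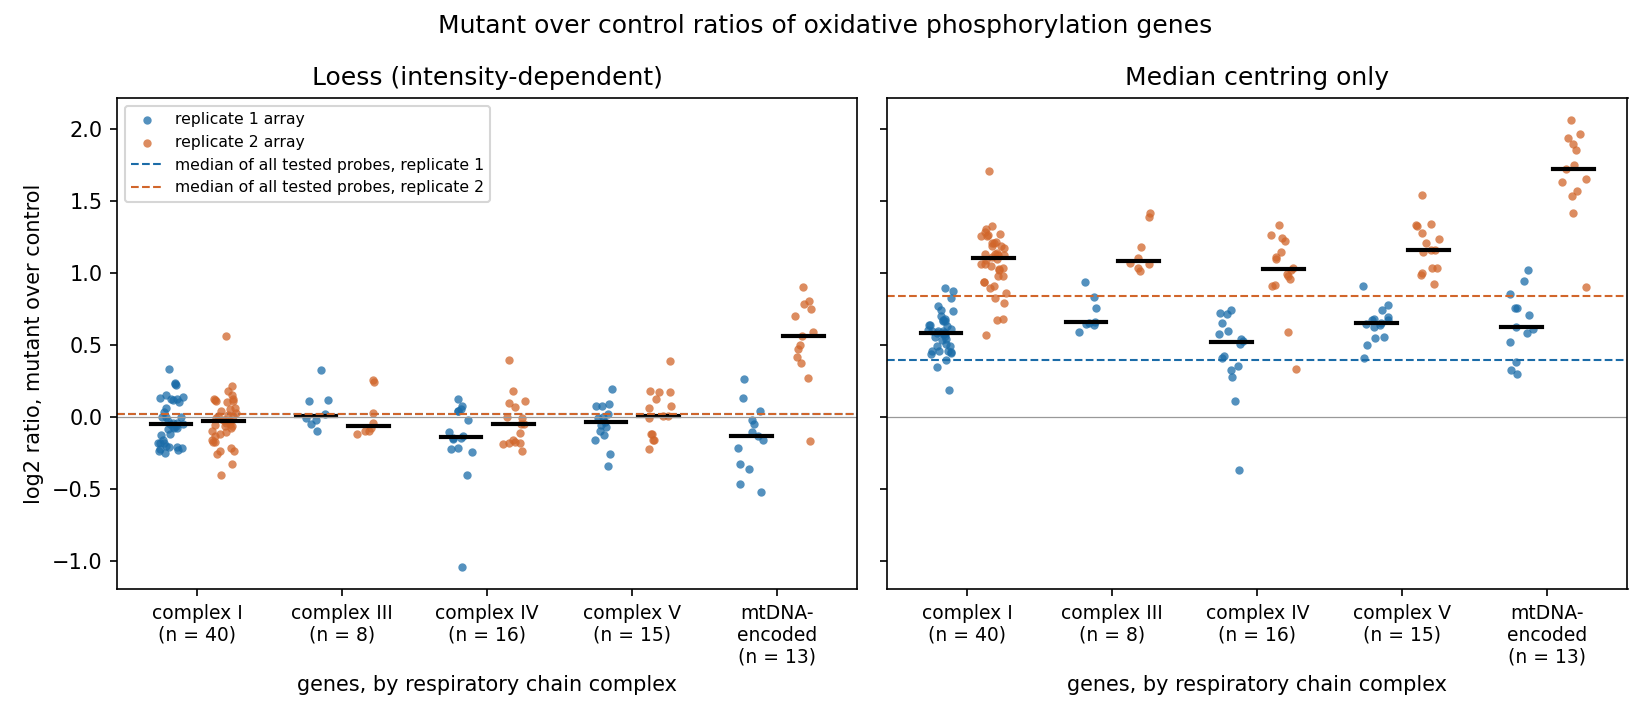
Log2 ratio of mutant over control (vertical axis) of tested genes, by complex, with 1 gene of complex I left out, with loess (left) and with median centring only (right). Blue points are the replicate 1 array, orange points the replicate 2 array, black bars the medians of a group, and dashed lines the medians of all tested probes. Nuclear genes sit around 0 with loess and, apart from Cox6a2 on replicate 1, above 0 with median centring. The 13 genes of mitochondrial DNA stand apart on the replicate 2 array.

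Complex I was represented by 41 tested genes, with medians of -0.05 on replicate 1 and -0.03 on replicate 2. Of these genes 7 were higher and 16 lower on both arrays. Its nuclear core genes carry the flavin, the iron-sulfur clusters and the quinone site. Ndufv2, an iron-sulfur subunit of the NADH-oxidising module, was higher on both arrays, with ratios of 0.12 and 0.11. Ndufv1, which binds NADH and the flavin, had ratios of -0.21 and -0.06, and Ndufs1, the largest iron-sulfur subunit, -0.03 and -0.04. Of the subunits on the way to ubiquinone, Ndufs7 had ratios of -0.07 and -0.12, while Ndufs3 (-0.22 and 0.03) and Ndufs8 (0.06 and -0.16) had opposite signs.

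The 29 accessory genes of complex I included 6 higher and 11 lower on both arrays. Ndufc2, a small membrane-arm subunit, had the highest mean of all member genes. Its log2 level was 11.35 and 11.61 in the mutant samples, against 11.12 and 11.04 in the control samples. The ratio was 0.39 ± 0.24 (n = 2), a fold of 1.31, with an adjusted p of 0.40 by limma. Ndufa9, which sits where the membrane arm meets the matrix arm, was high on replicate 1 alone (0.34 and 0.01), and Ndufa10, a membrane-arm subunit, had ratios of 0.11 and 0.18. Lowest were Ndufs5 (-0.21 on both arrays) and Ndufb9 (-0.23 and -0.17), both membrane-arm subunits. Assembly factors help to build the complex and are not part of it. Of the 5 tested, Ndufaf1, Ndufaf2, Ndufaf4 and Atp5sl (Dmac2) had opposite signs on the arrays, with Ndufaf4 the widest at 0.23 and -0.40. Ndufaf3 was lower on both, at -0.25 and -0.06.

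**Figure D2:**
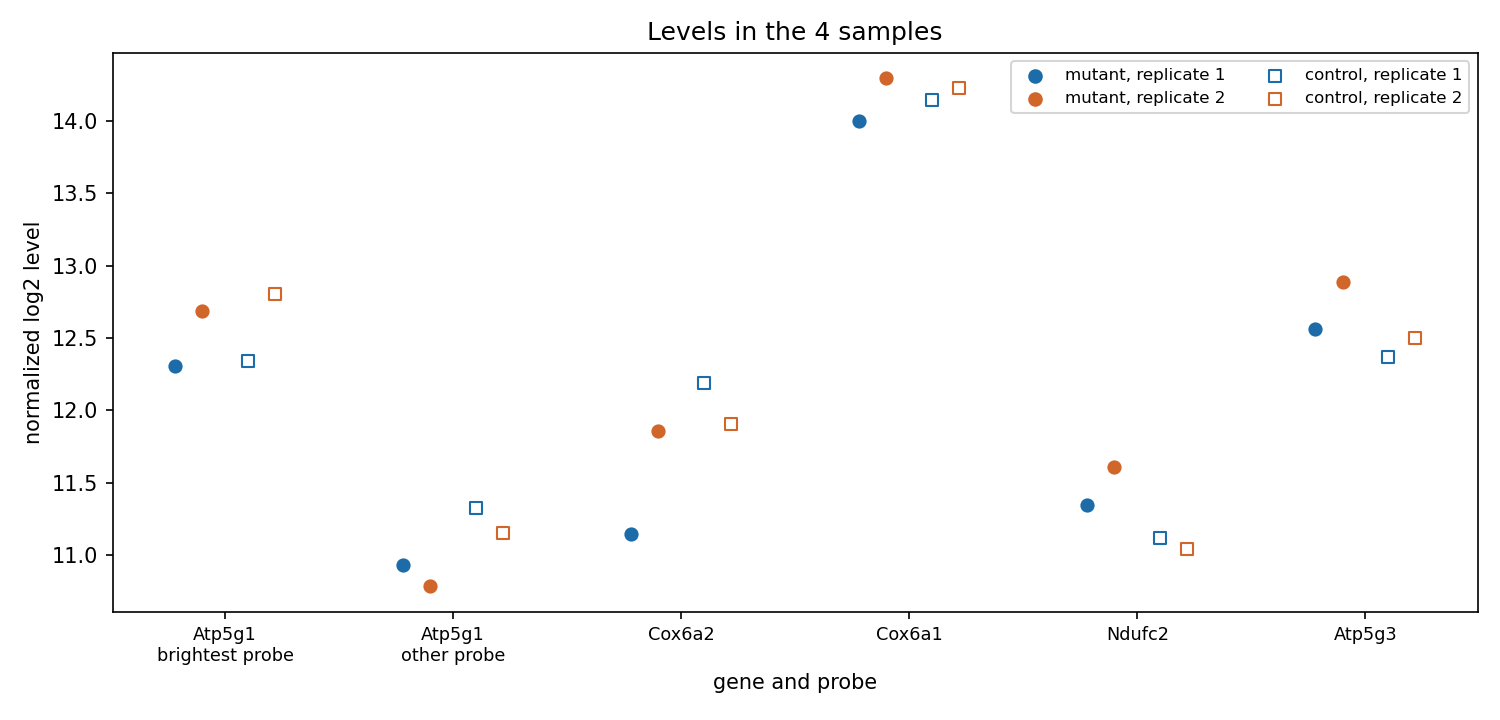
Normalized log2 level (vertical axis) in each of the 4 samples for the probes of Atp5g1, Cox6a2, Ndufc2 and Atp5g3 and for Cox6a1, the common isoform beside Cox6a2. Filled circles are mutant and open squares control samples, blue for replicate 1 and orange for replicate 2. Levels of different probes are not comparable. For Cox6a2 the replicate 1 mutant sample lies apart from the other samples.

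Complex III had 8 tested genes, with medians of 0.01 and -0.06. Uqcrfs1, the Rieske iron-sulfur protein and its nuclear core subunit here, had log2 levels of 10.76 and 10.71 in the mutant samples, against 10.43 and 10.75 in the control samples. The replicate 1 control sample was the low one, and the groups overlapped. Uqcrh, the hinge protein that contacts cytochrome c1, was higher on both arrays (0.11 and 0.26). Uqcr10, a small subunit, had ratios of -0.01 and 0.24. Uqcrq and Uqcr11, also small subunits, were the ones lower on both, Uqcrq at -0.10 and -0.09 and Uqcr11 at -0.05 and -0.12. The core protein Uqcrc1 had ratios of 0.02 and -0.10.

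Complex IV had 16 of 20 genes tested, with medians of -0.14 and -0.05. Its 10 common nuclear subunits surround a catalytic core made from mitochondrial DNA. They had medians of -0.14 and -0.13, with 0 higher and 4 lower on both arrays, and all 10 stayed within 0.25 log2 units of 0 on both arrays. Cox5b, a zinc-binding subunit, had the lowest mean of these 10. Its log2 level was 10.80 and 10.96 in the mutant samples, against 11.03 and 11.14 in the control samples. The ratio was -0.20 ± 0.03 (n = 2), with an adjusted p of 0.64 by limma. Ndufa4, first assigned to complex I and now counted with complex IV, was higher on both arrays at 0.13 and 0.10.

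Among the restricted isoforms of complex IV, Cox6a2, the form known from heart and skeletal muscle, was the only tested one to reach a difference of 1 log2 unit on any array. Its log2 level was 11.15 and 11.86 in the mutant samples, against 12.19 and 11.90 in the control samples. The mutant sample of replicate 1 was low, and on replicate 2 the genotypes were nearly level. The ratio was -0.54 ± 0.70 (n = 2), with an adjusted p of 0.48 by limma, so the arrays differed by more than the mean departed from 0. Its common counterpart Cox6a1 had ratios of -0.14 and 0.07. Cox4i2, a form known from lung, had ratios of -0.15 and 0.39. Cox6b2, known from testis, had 0.04 and -0.18, while for Cox7a1, known from muscle, replicate 1 gave 0.08. Cox7a2l, which joins complexes III and IV into supercomplexes, had log2 levels of 13.08 and 13.04 in the mutant samples, against 13.48 and 13.08 in the control samples. The replicate 1 control sample was the one apart, and the ratios were -0.40 and -0.04.

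Complex V had 15 of 16 genes tested, with medians of -0.03 and 0.01. The F1 head, which holds the catalytic sites, had 5 genes, of which 2 were higher and 2 lower on both arrays. Atp5b, the catalytic beta subunit, had ratios of 0.02 and 0.18, Atp5a1, the alpha subunit, -0.10 and 0.18, and Atp5d, the delta subunit of the central stalk, 0.09 and 0.07. Atp5c1, the gamma subunit that turns in the head, had -0.06 and -0.12. Atp5e, the epsilon subunit at its foot, had log2 levels of 12.93 and 13.30 in the mutant samples, against 13.27 and 13.45 in the control samples. It was lower within both arrays (-0.34 and -0.16), while the groups overlapped.

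The membrane ring of ATP synthase is built from copies of 1 protein, for which Atp5g1, Atp5g2 and Atp5g3 code with different leader peptides. Atp5g3 had log2 levels of 12.56 and 12.89 in the mutant samples, against 12.37 and 12.50 in the control samples. The ratio was 0.29 ± 0.14 (n = 2), a fold of 1.22, with an adjusted p of 0.51 by limma. Atp5g2 had a ratio of 0.17 on replicate 2 and a level nearly equal in both genotypes on replicate 1. Both probes named for Atp5g1 had negative ratios on both arrays. The downstream one matched no RefSeq transcript and shares 12-base windows with 18 other probes on the same strand. Whether it reads Atp5g1 was not tested. Its brighter, upstream probe had ratios of -0.03 and -0.12, and its downstream probe -0.39 and -0.36. The 4 other tested probes with the window in capitals, sought after these values were seen, had medians of -0.47 and -0.10, and 2 of them were lower on both arrays. The peripheral stalk genes Atp5f1 (Atp5pb), Atp5h, Atp5j and Atp5o, which hold the head in place, had means between -0.08 and 0.06.

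Probes of the same gene mostly gave like ratios. For the 27 member genes with several tested probes, the median gap between the highest and the lowest mean ratio was 0.09 log2 units, and 24 genes had a gap under 0.2. Atp5g1 was over it, and so was Ndufb11, a membrane-arm subunit of complex I, 1 of whose probes was dim, with no control sample well above background. In 10 genes the probes had means of opposite sign. The 10 tested member probes that matched no RefSeq transcript included the downstream Atp5g1 probe. They had medians of -0.17 and -0.05, with 0 higher and 5 lower on both arrays.

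Before normalization, brighter probes had higher ratios, and most of the member probes are bright. Of the 118 tested member probes, 102 lay in the brightest 25% of all tested probes. With median centring, the medians of all tested probes were 0.39 on replicate 1 and 0.84 on replicate 2, and 4 equal bands of brightness, from dimmest to brightest, had medians of 0.14, 0.32, 0.50 and 0.63 on replicate 1 and 0.35, 0.72, 1.02 and 1.14 on replicate 2. The 81 member genes had medians of 0.60 and 1.10, and 80 of them were positive on both arrays, with Cox6a2 the exception (-0.37 and 1.10). The 102 member probes in the brightest band had medians of 0.60 and 1.13, beside 0.63 and 1.14 for that band as a whole.

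On the limma test with median centring, 72 of the 118 member probes, from 53 genes, were called higher and 0 lower, against 29.9% of all tested probes called higher. Within the brightest band 71 of the 102 member probes were called, against 64.2% of all probes there. By complex, 27 of 41 genes of complex I, 7 of 8 of complex III, 6 of 16 of complex IV and 13 of 15 of complex V were called higher. Ndufc2 had the ratios 0.87 and 1.71 (adjusted p = 0.0026 by limma) and Atp5g3 0.91 and 1.55 (adjusted p = 0.0045 by limma). With no within-array step at all, 112 member probes were called higher. That setting called 13938 of all 22266 tested probes, higher and lower together. Ndufc2 and Atp5g3 had the highest means of the 81 genes with loess and with median centring alike. Which setting is nearer to the RNA content of the islets was not tested.

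**Figure D3:**
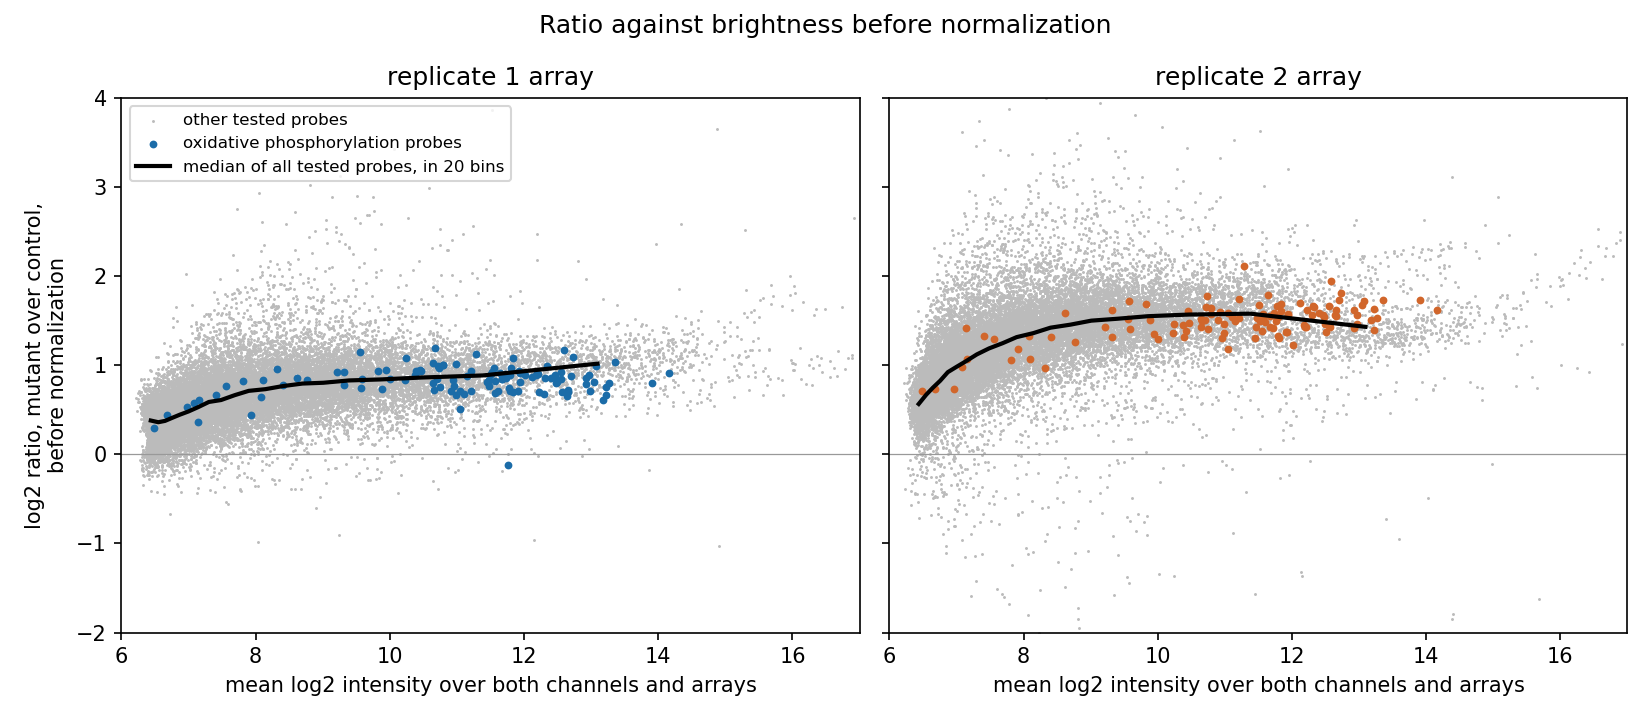
Log2 ratio of mutant over control before normalization (vertical axis, values from -2 to 4 shown) against mean log2 intensity (horizontal axis, 6 to 17 shown) on the replicate 1 (left) and replicate 2 (right) arrays. Grey points are other tested probes, coloured points the tested member probes, those of 1 gene left out, and the black line the median of all tested probes in 20 bins of equal size. The line lies above 0 at all brightness levels and is lowest for dim probes, and the member probes follow it at the bright end.

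Mitochondrial DNA codes for the other 13 subunits of complexes I, III, IV and V, and all 13 were measured. Their ratios differed between the arrays: 10 of the 13 were lower in the mutant on replicate 1, with a median of -0.13, and 12 of the 13 were higher on replicate 2, with a median of 0.57. No gene was called after loess, and 1 had an unadjusted p under 0.05 by limma. Of all tested probes 0.368% were called higher and 0.0135% lower, and 11.3% had an unadjusted p under 0.05. COX1, the catalytic subunit of complex IV, had log2 levels of 15.90 and 16.93 in the mutant samples, against 16.11 and 16.18 in the control samples. The replicate 2 mutant sample was the high one. CYTB, the cytochrome b of complex III, had log2 levels of 15.09 and 15.81 in the mutant samples, against 15.20 and 14.91 in the control samples, and again the replicate 2 mutant sample was the high one. ND6, the only protein gene read from the light strand, was lower on both arrays (-0.16 and -0.17), and the other 12 genes had ratios from 0.27 (ND1) to 0.91 (CYTB) on replicate 2. On the same array the nuclear genes of complexes I, III, IV and V had medians from -0.06 to 0.01, and the difference between these sets was not tested. Beta cell markers also had median ratios of opposite sign on the arrays, -0.58 and 0.25, as did acinar cell markers, 0.40 and -5.15. The part of either cell type in the mitochondrial values was not tested.

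**Figure D4:**
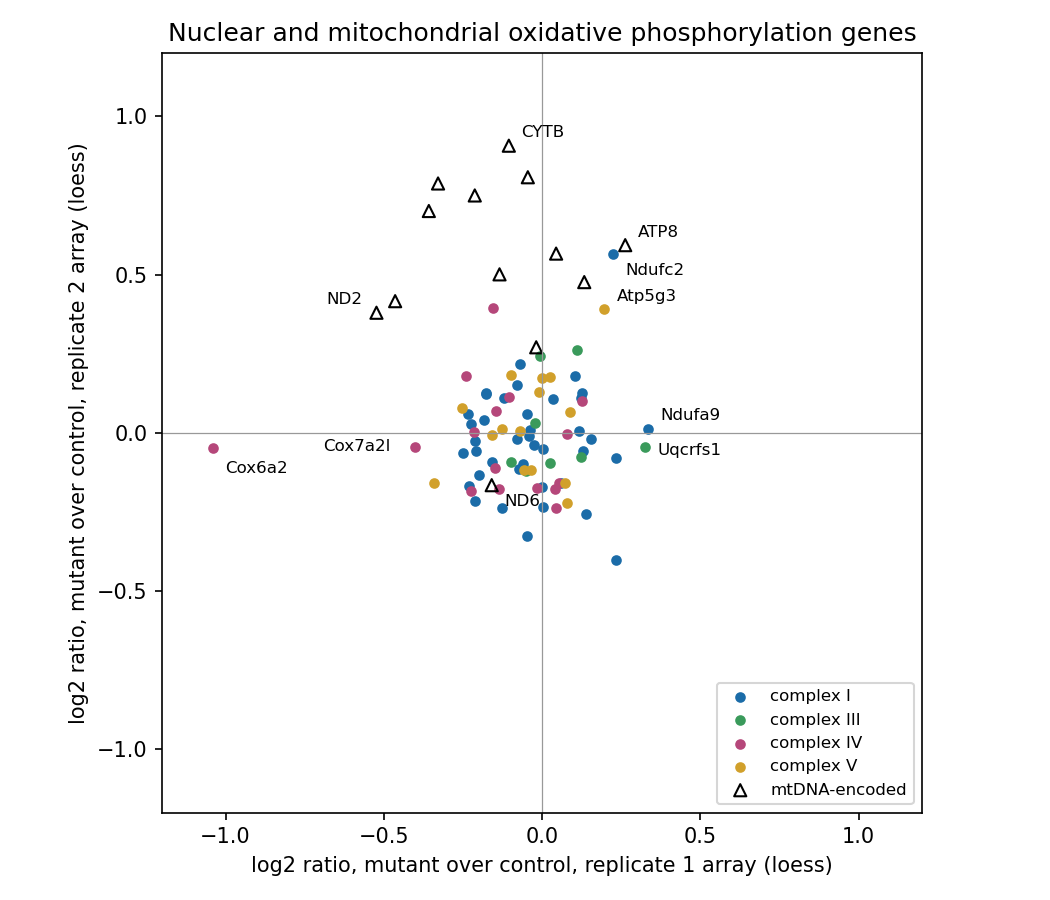
Log2 ratio of mutant over control after loess on the replicate 1 array (horizontal axis) against the replicate 2 array (vertical axis). Filled circles are tested nuclear genes, coloured by complex, 1 gene left out, and open triangles the 13 genes of mitochondrial DNA. Nuclear genes gather around 0 with Cox6a2 at the far left, and the mitochondrial genes lie above 0 on the vertical axis except ND6.

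Genes that work beside these complexes gave 0 calls after loess in every list. As only 0.368% of all tested probes were called higher and 0.0135% lower, lists this small could be expected to give none. The 4 genes of complex II, succinate dehydrogenase, which is wholly nuclear-encoded, had medians of 0.05 and 0.28, with 3 higher on both arrays and Sdha, the flavoprotein, at 0.02 and 0.41. The 12 enzyme genes of the citric acid cycle had medians of 0.17 and 0.10, with 6 higher and 2 lower on both arrays. Idh3a, of the NAD-dependent isocitrate dehydrogenase, had the highest mean of that list (0.41 and 0.24) and Suclg1, of succinyl-CoA ligase, the lowest (-0.04 and -0.27). Cycs, cytochrome c itself, had ratios of 0.18 and 0.10, and Cyc1, the cytochrome of complex III, -0.04 and -0.22. The other parts and the inhibitor of ATP synthase (3 genes) had medians of -0.03 and 0.11, from Usmg5, a membrane part of the synthase (-0.11 and 0.11), to the inhibitor Atpif1 (-0.03 and 0.13).

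Of 12 tested regulators of mitochondrial gene expression, 3 were higher and 2 lower on both arrays, with medians of -0.00092 on replicate 1 and 0.04 on replicate 2. The coactivator Ppargc1a was highest (0.21 and 0.16) and its relative Pprc1 lowest (-0.15 and -0.39). The 12 carrier and import genes had medians of 0.10 and 0.05, with 6 higher and 0 lower on both arrays, and Tomm22, a receptor of the outer membrane import pore, was highest (0.07 and 1.05) and Tomm40, the pore itself, lowest (0.01 and -0.30). The 9 tested assembly genes of complex IV had medians of 0.09 and 0.0044, with Lrpprc, which stabilises mitochondrial messenger RNA, highest (0.03 and 0.48) and Cox19 lowest (-0.01 and -0.15). The 3 tested assembly genes of complex III had medians of -0.10 and 0.02, from Uqcc (-0.26 and -0.13) to Bcs1l (0.13 and 0.02). The 5 further assembly genes of complex I had medians of 0.04 and 0.10, from Foxred1 (-0.27 and -0.04) to Acad9 (0.04 and 0.79). The 7 genes of uncoupling and of other electron entry routes had medians of 0.05 and 0.03, from Ucp3 (0.04 and -0.44) to Etfdh (0.32 and 0.12).

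Some promoters of the subunit genes hold runs of letters that the choice by name did not use. Windows from 250 bases before to 50 after the start were taken from RefSeq (GRCm38.p6), which held 65 such promoters for 60 of the 70 common subunit genes and 32851 promoters in all, of coding and noncoding genes. Exact matches were sought on both strands. The letters GCGCATGCG, known as an NRF1 site, were in 12.3% of the subunit promoters and 1.75% of all. The ETS-type letters CCGGAAG, bound by GABP among others, were in 21.5% and 8.86%, and the YY1 letters AAGATGGC in 15.4% and 2.75%. The ETS and YY1 letters can overlap by 3 bases, and 0 of the 65 subunit promoters and 1 of all 32851 held that overlap. At least 1 of these 3 runs was in 41.5% of the subunit promoters and 12.5% of all. Of 2 runs typical of E2F sites, TTTCCCGC was in 0 of the 65 subunit promoters and 1.07% of all, and TTTGGCGC was in 3.08%, those of Cox5a and Cox8a, and 0.514% of all. The set of all promoters was not matched to the subunit promoters for base composition. A match is a run of letters and not a shown site of binding.

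Levels of cell type markers were not even across the samples. Beta cell markers, 10 of 10 tested, had median log2 levels of 12.38 and 12.72 in the mutant samples, against 12.68 and 12.53 in the control samples. Their median ratios were -0.58 and 0.25. On replicate 1, 9 of the 10 were lower in the mutant, and on replicate 2 all 10 were higher. Acinar markers had median log2 levels of 16.31 and 11.53 in the mutant samples, against 16.03 and 17.16 in the control samples, and 22 of 22 were lower in the mutant on replicate 2. Stellate and fibroblast markers were higher in the mutant on both arrays for 11 of 11 tested genes, with medians of 1.36 and 1.08. By limma 7 of these were called higher, and with an offset of 0, Agilent's processed signals, the series matrix or separate channels without the block 0 probes of the array were called. Median ratios were 0.46 and 0.58 for endothelial markers, 0.53 and 0.40 for duct markers, 1.17 and 0.20 for markers of other endocrine cells and 0.03 and 0.28 for leukocyte markers. Their part in the ratios of the nuclear respiratory chain genes was not tested. In whole islets, fewer cells of a type and less RNA per cell cannot be told apart.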

How the data were processed

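RNA of 2 mutant and 2 control islet samples was read on 2 two-colour Agilent arrays. Per the file headers and the submitters' processing notes, the scans were quantified in Agilent Feature Extraction (version 10.7.3.1). The deposited intensity values are mean signals and median local backgrounds, and processed signals that the software had dye-normalized. The deposited log10 ratios are red (mutant) over green (control), per the file headers, and these log10 values recur in the authors' series matrix. The deposited p-values of Feature Extraction (per the file headers) cover error within 1 array and were not used. Signals were corrected by normexp (offset 50) and normalized by loess (span 0.3) in limma 3.58.1 (R 4.3.3). Control spots and 4 uneven gene spots per array were left out, 0 gene spots were saturated, and replicate spots were averaged. Tested were probes of which at least 0.5 of the spots were well above background in either channel on both arrays (22266). The gene spots well above background made up 41.0% and 48.2% in the mutant channel and 37.0% and 38.1% in the control channel, on replicates 1 and 2, and 2 arrays limit the precision. Ratios were tested against 0 by lmFit and eBayes (two-sided; Benjamini-Hochberg adjustment over all tested probes; threshold 0.05), and each probe has 1 residual degree of freedom. The array is the pairing. Channel levels are log2 values after loess and Aquantile. The test was checked on simulated data.

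Members and lists were chosen with earlier results of these data known. Named genes are the core and F1 genes, the 3 highest and 3 lowest of each complex, those called with either normalization, restricted isoforms, assembly factors, genes with probes of opposite sign, and the extremes of each pathway list. Genes called with median centring alone are given as counts and, for those that changed sign, as values in the closing section. The list of mitochondrial genes was added after the values could be seen, by name. Of the 128 member probes, 114 matched a RefSeq transcript. Alternatives covered the normalization, offset, signal, filter, prior, separate channels, mean of probes and each array alone. The values of 1 member gene are not reported here.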

Additional observations from a re-analysis of the deposited data

How the results depend on the processing

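Within-array normalization decided the calls. With median centring 72 member probes were called higher, with no within-array normalization 112, and 80 genes were then higher on both arrays and 0 lower in each of these settings, against 14 and 28 with loess. Over all 22266 tested probes the same settings made 6731 and 13938 calls, higher and lower together. With median centring and then with no normalization, the median ratio was 0.85 and 1.17 for all member genes, 0.84 and 1.16 for complex I, 0.92 and 1.24 for complex III, 0.78 and 1.10 for complex IV, 0.87 and 1.19 for complex V and 1.04 and 1.37 for complex II. The same pair of settings gave 0.88 and 1.21 for cytochrome c and cytochrome c1, 0.94 and 1.27 for other ATP synthase parts and inhibitor, 0.64 and 0.96 for cytochrome c oxidase assembly, 0.72 and 1.04 for complex III assembly, 0.68 and 1.00 for other complex I assembly, 1.02 and 1.34 for citric acid cycle, 0.64 and 0.96 for regulators of mitochondrial gene expression, 0.92 and 1.25 for mitochondrial carriers and import, 0.84 and 1.16 for uncoupling and alternative electron entry and 1.28 and 1.60 for the mitochondrial DNA genes. Of the named genes, these had a negative mean after loess and were called higher in both settings, with means in the same order of 0.84 and 1.17 for Atp5c1, 0.83 and 1.16 for Atp5f1, 0.86 and 1.18 for Atp5g1, 0.85 and 1.17 for Atp5h, 0.90 and 1.23 for Atp5j2, 0.86 and 1.18 for Atp5k, 0.87 and 1.19 for Atp5l, 0.86 and 1.18 for Cox5a, 0.94 and 1.27 for Cox6a1, 0.82 and 1.14 for Cox7b, 0.94 and 1.27 for Cox8a, 0.82 and 1.15 for Ndufa12, 0.84 and 1.16 for Ndufa13 and 0.93 and 1.26 for Ndufa2. The others of this kind had 0.83 and 1.16 for Ndufa3, 0.86 and 1.18 for Ndufa7, 0.85 and 1.17 for Ndufb10, 0.89 and 1.21 for Ndufb2, 0.88 and 1.21 for Ndufb4, 0.89 and 1.21 for Ndufb7, 0.83 and 1.15 for Ndufc1, 0.85 and 1.18 for Ndufs1, 0.81 and 1.13 for Ndufs3, 0.81 and 1.13 for Ndufs6, 0.82 and 1.14 for Ndufs7, 0.92 and 1.25 for Ndufv3, 0.84 and 1.17 for Uqcr11, 0.85 and 1.18 for Uqcrq and 0.92 and 1.25 for Usmg5. With no normalization alone, negative means turned to calls at 1.03 for Atp5e, 1.01 for Cox5b, 1.06 for Cox7a2l, 1.11 for Cox7c, 0.99 for Ndufaf1, 0.95 for Ndufaf2, 0.81 for Ndufaf3, 0.96 for Ndufaf4, 1.11 for Ndufb11, 1.07 for Ndufb6, 1.04 for Ndufb9, 1.02 for Ndufs5, 1.05 for Ndufs8, 1.10 for Ndufv1, 1.13 for Uqcrc1, 1.07 for Cyc1, 0.94 for Cox19, 0.87 for Foxred1, 1.03 for Suclg1, 1.00 for Tomm40, 0.89 for Ucp3 and 0.97 for ND6. With a normexp offset of 0 the medians were -0.0635 for all member genes, -0.0709 for complex I and -0.0269 for regulators of mitochondrial gene expression. Agilent's processed signals and the series matrix gave medians of -0.0581 and -0.0585 for cytochrome c oxidase assembly, -0.0741 and -0.0746 for regulators of mitochondrial gene expression and 0.059 and 0.0583 for uncoupling and alternative electron entry. With no filter on dim probes 1 member probe was called lower. With 1 array alone, the median ratio ran from -0.0479 to -0.0209 for all member genes, from -0.048 to -0.0265 for complex I, from -0.0606 to 0.00857 for complex III, from -0.0338 to 0.0113 for complex V, from 0.00445 to 0.0873 for cytochrome c oxidase assembly, from -0.10 to 0.0186 for complex III assembly, from 0.0405 to 0.10 for other complex I assembly, from 0.10 to 0.17 for citric acid cycle and from 0.0457 to 0.10 for mitochondrial carriers and import. A single array leaves no residual degree of freedom, so no calls were made from it. The separate-channel fit with the array as replicate block called 0 member probes and 85 probes in all, like the ratios, and the fit without the pairing block called 0 and 0. The paired block changed no other call. Over all tested probes, calls numbered 85 with loess and the constant prior, 566 with a trended and robust prior, 356 with no filter, 76 with both channels above background and 0 with offset 0, processed signals or the series matrix. Of these calls, 1 was a member probe, with no filter. At an unadjusted p under 0.05 the settings other than median centring and no normalization gave 1 to 5 member probes. The cause of the differences between settings was not tested. With 2 arrays and no exchanged dyes, only large differences can be called, and the offset of 50 draws ratios of dim probes towards 0.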
